A study of Mus musculus with 12 samples.

Results

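Endothelial identity genes are described here in libraries made from adult cardiomyocytes (ACM) of desmin-deficient and control mice. The 10 genes were Pecam1, Cdh5, Kdr, Flt1, Tek, Tie1, Vwf, Emcn, Eng and Plvap, found by their symbols among the 21493 genes counted in every library, and all 10 were present and passed the filter on low counts. Desmin is the muscle intermediate filament protein. ACM of 3-month-old mice were isolated by perfusion of the heart with trypsin and collagenase, without cell sorting, and harvested at once. Des+/+ mice carried the desmin gene and Des-/- mice lacked it, and each genotype was studied without swimming (non-swim) and after swimming exercise (swim), with 3 libraries in each of the 4 groups and 12 in all. Both genotypes carried a GFP transgene under the cardiac αMHC promoter on a 129SV background. According to the study's methods, a library pooled the cells of several mice.

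Endothelial cells line the inside of blood vessels and of the heart chambers, and cardiac muscle holds a dense capillary bed between its myocytes. They are held together by junction proteins, and they read the vascular endothelial growth factors (VEGF) and angiopoietins, many of which are made by neighbouring cells, through receptor tyrosine kinases. The identity genes are little expressed by cardiomyocytes, so that their transcripts are commonly used to mark endothelial cells in heart preparations.

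Depth ranged from 4320819 assigned reads in a Des-/- swim library to 12072443 in a Des+/+ non-swim library, and levels below are in CPM, that is counts scaled to the size of each library by TMM. As a check of the labels, Des averaged 2367 and 1273 CPM in the non-swim and swim libraries of Des+/+ mice (SD 1137 and 336, n = 3 each), and 59.5 and 96.5 CPM in those of Des-/- mice (SD 11.3 and 4.71). The libraries differed in cell content. Summed over a list of 11 cardiomyocyte genes, the level was 76717 to 113828 CPM in Des+/+ non-swim, 37848 to 61194 in Des+/+ swim, 7257 to 33216 in Des-/- non-swim and 18776 to 31408 in Des-/- swim libraries. Replicate 3 of both Des-/- groups stood apart with the highest sums of the fibroblast genes, 36319 and 11987 CPM, and of the macrophage genes, 4249 and 1342 CPM. Results of single genes that rest on these libraries are also given without them. Ratios and list medians were not computed with both left out. Some uniquely aligned reads matched no annotated exon on the counted strand, and exon reads of the other strand would fall among them. This share was 34.0 to 39.3% in Des+/+ non-swim and 45.9 to 50.4% in Des+/+ swim libraries. It was 34.2 to 52.3% in Des-/- non-swim and 57.2 to 64.5% in Des-/- swim libraries. Its part in the results below was not tested.

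The sequences before the transcription start are shown for the VEGF receptors and endoglin, whose levels are compared most closely below. RefSeq sequences of build GRCm38 were matched by symbol for 6 of the 10 genes, namely Kdr, Flt1, Tek, Tie1, Emcn and Eng. Each line gives the coordinates and the gene's strand, and the bases run 5′ to 3′ along that strand up to the annotated start. Capitals mark the letters GGAAGT on either strand, a form of the site bound by the ETS family of transcription factors in endothelial and other cells. Shorter GGAA stretches, which the sequences also hold, are not marked.
Kdr, chr5:75978459-75978705, minus strand, 247 bases: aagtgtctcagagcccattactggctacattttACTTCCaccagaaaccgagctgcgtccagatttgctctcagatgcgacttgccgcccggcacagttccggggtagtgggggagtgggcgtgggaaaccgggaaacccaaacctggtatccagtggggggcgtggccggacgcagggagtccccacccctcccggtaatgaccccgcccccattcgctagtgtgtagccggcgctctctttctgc
Flt1, chr5:147726012-147726261, minus strand, 250 bases: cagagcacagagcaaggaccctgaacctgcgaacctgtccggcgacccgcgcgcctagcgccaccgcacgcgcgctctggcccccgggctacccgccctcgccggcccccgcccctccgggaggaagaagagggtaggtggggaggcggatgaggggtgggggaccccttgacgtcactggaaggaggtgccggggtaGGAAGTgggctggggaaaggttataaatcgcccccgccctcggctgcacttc
Eng, chr2:32646345-32646594, plus strand, 250 bases: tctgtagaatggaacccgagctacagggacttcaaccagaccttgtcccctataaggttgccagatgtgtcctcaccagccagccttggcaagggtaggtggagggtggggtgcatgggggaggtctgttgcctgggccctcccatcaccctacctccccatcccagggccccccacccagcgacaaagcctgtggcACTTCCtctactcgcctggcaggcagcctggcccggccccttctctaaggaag
Each of the 3 sequences holds 1 match of GGAAGT. In the 250 bases before the RefSeq start, searched on both strands, GGAAGT occurs in 4 of the 6 windows of these genes (Kdr, Flt1, Tie1 and Eng). It occurs in 19.7% of the 32851 windows of all genes. For Tie1, only 38 of the 250 bases lie before the annotated start of the gene, and these hold 0 matches. The SOX core letters AACAAT occur in 2 of the 6 (Tek and Emcn) and in 9.42% of all windows, TATAAA in 1 (Flt1) and in 12.4%, and TGATAA in 0 and in 7.94%. The matches do not overlap one another in the printed sequences. These are matches of letters only.

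The genes lie on 7 chromosomes of build GRCm38, and each is annotated as protein-coding with counts over its exons. Pecam1 (ENSMUSG00000020717) is at chromosome 11, 106654217 to 106750628 (minus strand). Cdh5 (ENSMUSG00000031871) and Plvap (ENSMUSG00000034845) are on chromosome 8, at 104101625 to 104144511 (plus) and 71497765 to 71511752 (minus). The VEGF receptors share chromosome 5, with Kdr (ENSMUSG00000062960) at 75932827 to 75978458 and Flt1 (ENSMUSG00000029648) at 147561604 to 147726011, both minus. The TIE receptors share chromosome 4, with Tek (ENSMUSG00000006386) at 94739289 to 94874976 (plus) and Tie1 (ENSMUSG00000033191) at 118471191 to 118490061 (minus). Vwf (ENSMUSG00000001930) is on chromosome 6 at 125546774 to 125686679, Emcn (ENSMUSG00000054690) on chromosome 3 at 137341067 to 137432185 and Eng (ENSMUSG00000026814) on chromosome 2 at 32646595 to 32682669, all plus. None of the 10 shares exon sequence with another gene on the same strand. Summed exon length runs from 1987 bases for Plvap to 16064 for Vwf, so levels of different genes are compared per kilobase only.

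The genes were abundant in libraries labelled as cardiomyocytes. Per kilobase of exon, the mean level over 12 libraries was 323 ± 111 CPM per kb (SD, n = 12) for Eng and 308 ± 46.4 for Cdh5. Pecam1 followed with 171 ± 45.6, Tie1 with 149.6 ± 29.2 and Kdr with 144 ± 35.4, then Tek with 79.1 ± 13.3 and Flt1 with 65.9 ± 23.8. Emcn (35.9 ± 6.77), Plvap (35.0 ± 15.2) and Vwf (24.0 ± 7.51) were lowest. Between 83.3% of the 13158 genes tested (for Vwf) and 99.3% (for Eng) had a lower level per kilobase. The step down from Cdh5 to Pecam1, from Kdr to Tek and from Flt1 to Emcn was seen in 12 of 12 libraries. Eng was above Cdh5 in 5 of 12 libraries and Pecam1 above Tie1 in 7 of 12, so these neighbours did not differ beyond their spread. The other neighbours kept their order in 9 of 12, with mean differences below the larger of their SDs. Summed over the 10 genes, the level was 6282 to 7442 CPM in Des+/+ non-swim, 7352 to 10778 in Des+/+ swim, 5366 to 7644 in Des-/- non-swim and 6972 to 9429 in Des-/- swim libraries. In these bulk samples, fewer cells of a type and less RNA per cell cannot be told apart.

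**Figure D1:**
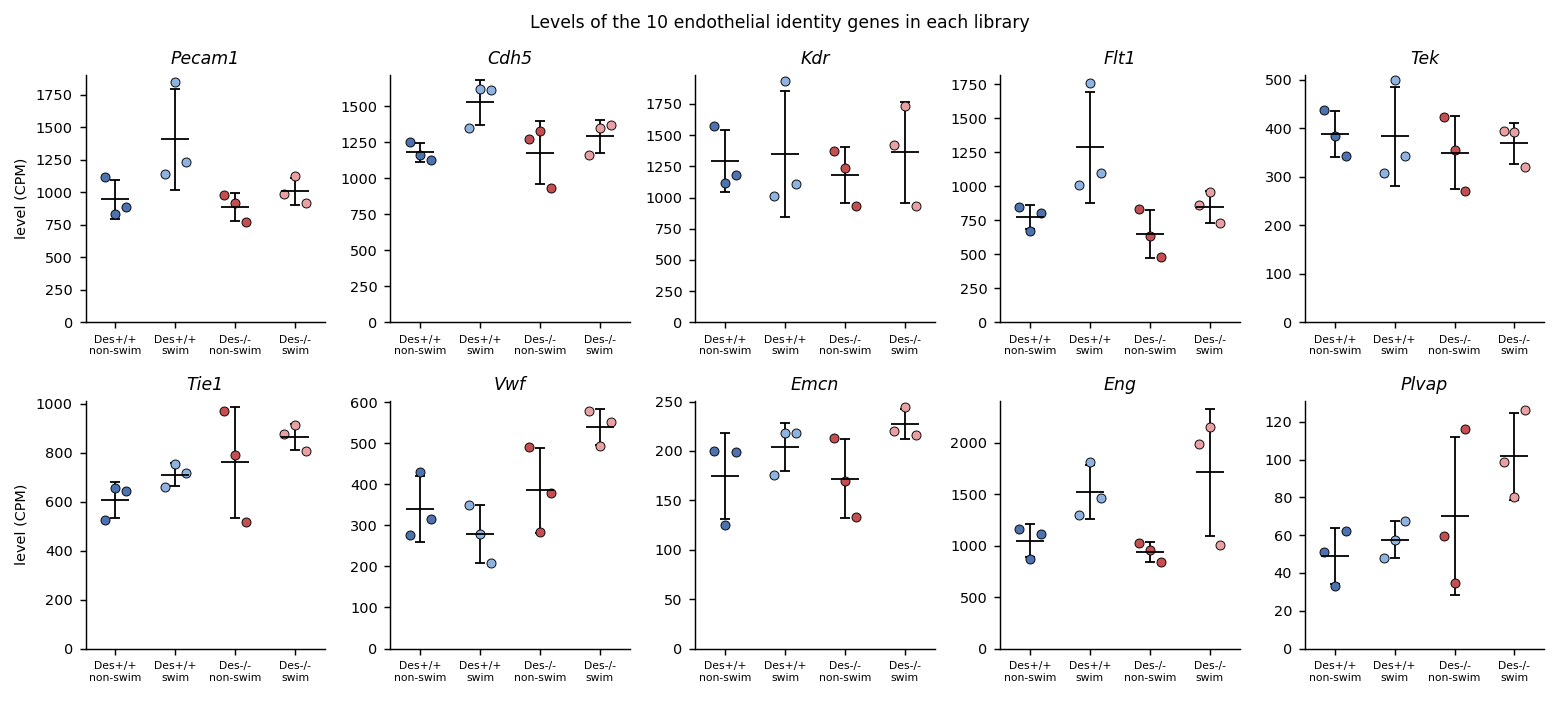
Level in CPM (vertical axis, from 0) of each of the 10 genes in every library of the 4 groups; points are libraries, horizontal bars the mean and error bars the SD (n = 3). Vwf in the Des-/- swim libraries, at 492 to 578 CPM, lies above all 3 Des+/+ swim libraries, at 209 to 349.9 CPM.

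The first question was how the levels of these genes differed by genotype in mice that had not swum. Without swimming, none of the 10 genes was called at an adjusted p under 0.05, in a comparison in which 32% of all genes tested were called (edgeR quasi-likelihood test). Log2 changes from Des+/+ to Des-/- lay between -0.26 (Flt1) and 0.52 (Plvap), with a median of -0.06 over the 10 genes and 0.04 over all genes. Each of the 10 genes overlapped between the genotypes, whereas 47.9% of all genes tested did not. The 95% interval of the change was narrowest for Cdh5 (-0.41 to 0.40) and widest for Plvap (-0.29 to 1.34). Without replicate 3 of both Des-/- groups, 1 gene was called, Tie1, with the higher level in Des-/-. In the same comparison, 11 of 11 cardiomyocyte genes were called lower (median -2.18) and 8 of 10 macrophage genes higher (median 2.94). The summed macrophage level was 388, 639 and 4249 CPM in Des-/-, the highest being replicate 3, and 208 to 322 in Des+/+. This macrophage median was not computed without that library.

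After swimming, 1 of the 10 genes was called between the genotypes, Vwf. Vwf encodes von Willebrand factor, a multimeric glycoprotein for platelet adhesion that endothelial cells store and that marks larger vessels and the endocardium more than capillaries. It was at 275, 429.7 and 315 CPM in the Des+/+ non-swim libraries and at 349.9, 279 and 209 in Des+/+ swim. In Des-/- it was at 490.4, 285 and 379 CPM without swimming and at 578, 492 and 551 after it. The groups overlapped without swimming and were apart after it, each Des-/- swim library being above every Des+/+ swim library. Vwf rose by 0.95 on the log2 scale (SE 0.25, 95% interval 0.41 to 1.50, edgeR adjusted p = 0.0348) from Des+/+ swim to Des-/- swim, and 10.6% of all genes were called in that comparison. The change without swimming was 0.18 (SE 0.25, adjusted p = 0.611). The difference between the 2 changes was 0.77 (95% interval 0.01 to 1.54, unadjusted p = 0.0471, adjusted p = 0.301), so a dependence on swimming did not hold after adjustment. Averaged over both conditions the Vwf change was 0.57 (SE 0.17, edgeR adjusted p = 0.0238), in a comparison with 39.9% of genes called. That adjusted p was 0.0571 to 0.0588 without replicate 1 or 3 of Des+/+ non-swim, replicate 3 of Des+/+ swim or replicate 1 of Des-/- non-swim.

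The call for Vwf after swimming depended on which libraries were included. Its log2 change was 0.78 to 1.14 when any 1 library was left out, and the adjusted p then ranged from 0.0277 to 0.129. It was over 0.05 without replicate 3 of Des+/+ non-swim, replicates 2 or 3 of Des+/+ swim, or any library of Des-/- swim. Of all genes, 1392 were called in the main fit and fewer in these sets. They were 930, then 817 and 74, then 505, 637 and 664, in the same order. Without replicate 1 of Des+/+ swim 561 were called, and Vwf was among them. Without replicate 3 of both Des-/- groups the Vwf change was 0.95 (adjusted p = 0.0456). Platelets also carry Vwf. The 5 platelet genes summed to 33.7 to 37.1 CPM in Des+/+ non-swim, 27.9 to 47.9 in Des+/+ swim, 56.4 to 121 in Des-/- non-swim and 37.9 to 136 in Des-/- swim libraries. Of the 4 that were tested, 4 were higher in Des-/- over both conditions (median 1.18) and 1, Pf4, a platelet chemokine, was called at 1.15 (adjusted p = 0.00532). Within Des-/- non-swim, Pf4 was highest in replicate 3, at 50.7 CPM, the library with the highest macrophage sum. Itga2b, Ppbp and Gp9 were lowest in that library, Itga2b at 9.88 CPM. What part of the Pf4 level came from platelets was not tested. The median of the 4 tested platelet genes by genotype was 1.23 without swimming (1 called), where Vwf was at 0.18. It was 1.04 after swimming (0 called), where Vwf was at 0.95. By swimming in Des-/- it was -0.16, with 3 of 4 lower, where Vwf was at 0.49. No platelet gene was at 0, and their part in the Vwf result was not tested.

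Plvap, which encodes a diaphragm protein of fenestrae and caveolae, was also higher in each Des-/- swim library than in any Des+/+ swim library. It was at 47.9, 57.4 and 67.6 CPM in Des+/+ swim and at 98.5, 80.5 and 126 in Des-/- swim, with no overlap. The log2 change was 0.82 (SE 0.38, adjusted p = 0.164), and over both conditions it was 0.67 (SE 0.26, adjusted p = 0.0622). The latter had an adjusted p of 0.0116 without replicate 2 of Des-/- non-swim and of 0.0365 by DESeq2, and the change was 0.33 (adjusted p = 0.220) without replicate 3 of both Des-/- groups. Without swimming, Plvap was at 51.0, 33.1 and 62.4 CPM in Des+/+ and at 59.5, 34.9 and 116 in Des-/-, the last being replicate 3, and the log2 change of 0.52 was -0.04 without that library. Tie1 was also higher in each Des-/- swim library (805 to 911 CPM) than in Des+/+ swim (662 to 752 CPM), with a log2 change of 0.28 (SE 0.21, adjusted p = 0.394). Flt1 and Pecam1 lay the other way, with each Des-/- swim library below every Des+/+ swim library. Their log2 changes were -0.60 (SE 0.26, adjusted p = 0.142) and -0.48 (SE 0.22, adjusted p = 0.164). In all, 5 of the 10 genes did not overlap between the genotypes after swimming, beside 35.9% of all genes tested.

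**Figure D2:**
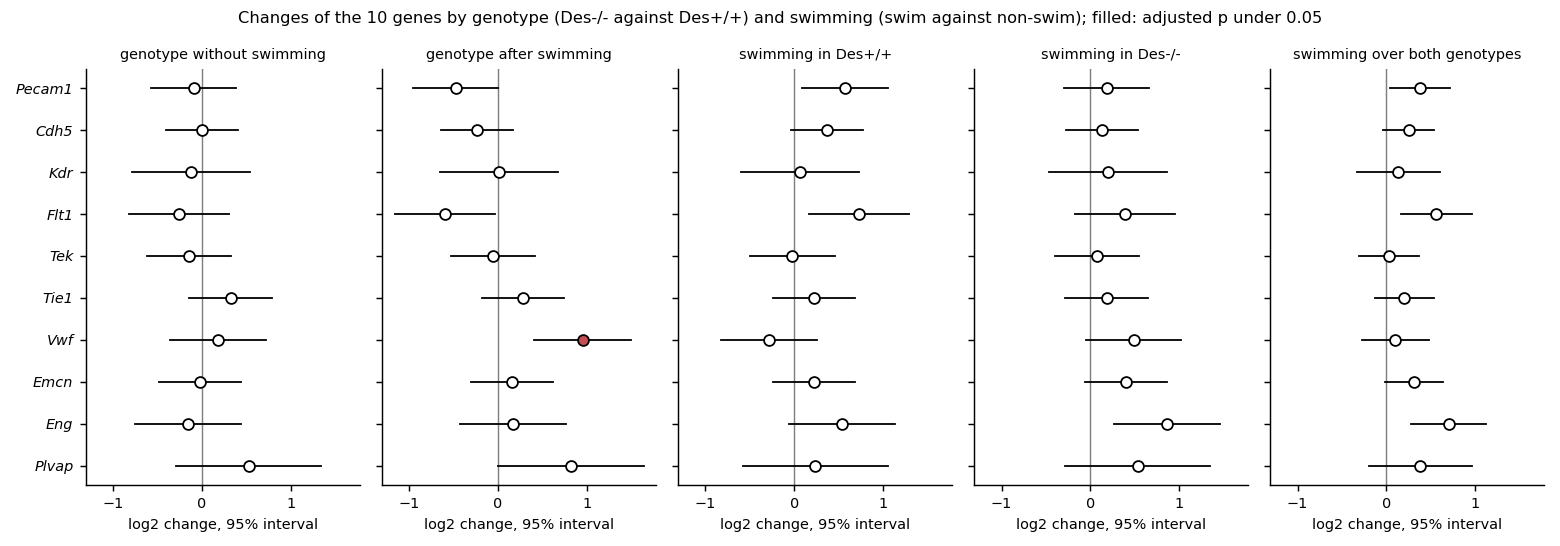
Log2 change (horizontal axis) of each gene for Des-/- against Des+/+ without and after swimming, and for swim against non-swim in each genotype and over both; points are edgeR estimates, lines 95% intervals, and filled points have an adjusted p under 0.05. Only Vwf after swimming is filled, at 0.95, and the 10 points for swimming over both genotypes lie between 0.03 and 0.70.

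The second question was how the levels differed by swimming in each genotype. Averaged over both genotypes, each of the 10 genes had a higher estimate after swimming, with a median log2 change of 0.28 against -0.05 over all genes, of which 41.8% were higher. None of the 10 was called by edgeR, which called 0.828% of all genes in this comparison (109 genes, 2580 at an unadjusted p under 0.05). Of the 10, 3 had an unadjusted p under 0.05, namely Eng, Flt1 and Pecam1. By DESeq2, which called 6.62% of all genes, 2 of the 10 were called, Eng and Flt1. In Des+/+ alone, 8 of 10 estimates were higher after swimming and 0 were called, where 0.0912% of all genes were. In Des-/- alone, 10 of 10 were higher and 0 were called, where 0.0228% were. DESeq2 called Eng there, at 0.89 (adjusted p = 0.0465), and 2.66% of all genes. Groups did not overlap for 5 genes in Des+/+ (Pecam1, Cdh5, Flt1, Tie1 and Eng), beside 31.3% of all genes tested. In Des-/- they did not for 2 (Vwf and Emcn), beside 19.4%. For the interaction, that is the swimming change in Des-/- minus that in Des+/+, edgeR called 0% of all genes and none of the 10, with 2148 genes and 1 of the 10 (Vwf) at an unadjusted p under 0.05. The cardiomyocyte sums given above were lower in every Des+/+ swim than in every Des+/+ non-swim library, and their part in these values was not tested. By swimming, the cardiomyocyte genes had a median of -0.75 in Des+/+ (11 of 11 lower) and 0.70 in Des-/- (10 of 11 higher). The erythroid median was 2.53 in Des+/+ (5 of 5 higher) and -1.07 in Des-/- (5 of 5 lower), and the macrophage median 0.01 and -1.67, with 0 called in these lists. In Des-/- the macrophage sums were 388, 639 and 4249 CPM without swimming and 220, 313 and 1342 after it, the highest of each being replicate 3.

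Eng showed the largest estimate of the 10 for swimming over both genotypes and in Des-/-, whereas Flt1 and Pecam1 were above it in Des+/+. It encodes endoglin, a co-receptor for ligands of the TGF-β family such as BMP9, which endothelial cells display. Eng was at 1163, 869 and 1115 CPM in Des+/+ non-swim and at 1298, 1811 and 1469 in Des+/+ swim, with no overlap. In Des-/- it was at 1024, 954 and 838 CPM without swimming and at 1988, 2151 and 1004 after it, so that replicate 3 of Des-/- swim lay within the non-swim range and the other 2 above it. The log2 change was 0.54 (SE 0.27, adjusted p = 0.283) in Des+/+ and 0.87 (SE 0.27, adjusted p = 0.203) in Des-/-. Over both it was 0.70 (SE 0.19, 95% interval 0.28 to 1.13, edgeR adjusted p = 0.0962). Without replicate 3 of Des-/- swim it was 0.84 (adjusted p = 0.0309), and without replicate 3 of both Des-/- groups 0.85 (adjusted p = 0.0192). Eng shares 61 bases of exon with Fpgs on the other strand. Reverse-strand counting would keep them apart only in directional libraries, and the sources differ on the kit. Of its partners, Acvrl1, the receptor kinase ALK1, had a log2 change of 0.51 (SE 0.11, adjusted p = 0.0577) for swimming.

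Among the VEGF receptors, Flt1 and Kdr were read apart. Kdr (VEGFR2) is the main signalling receptor for VEGF-A, and Flt1 (VEGFR1) binds VEGF-A, VEGF-B and PlGF and also acts as a decoy. Flt1 was at 846, 674 and 806 CPM in Des+/+ non-swim and at 1009.9, 1759 and 1095 in Des+/+ swim, with no overlap. In Des-/- it was at 831, 633 and 477 CPM without swimming and at 860.4, 958 and 728 after it, with overlap. Its log2 change for swimming over both genotypes was 0.56 (SE 0.18, edgeR adjusted p = 0.139). Kdr was at 1576, 1116 and 1179.8 CPM in Des+/+ non-swim, 1015, 1931 and 1105 in Des+/+ swim, 1376, 1235 and 933 in Des-/- non-swim and 1425, 1730.3 and 931 in Des-/- swim. Every pair of groups overlapped for Kdr, and the swimming change was 0.14 (95% interval -0.34 to 0.61).

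A ratio of 2 genes within a library does not depend on how the library was scaled. The ratios here and below were chosen with earlier results of these data known, and the adjustment over 8 tests does not cover that choice. The ratio of Flt1 to Kdr counts was 0.537, 0.603 and 0.683 in Des+/+ non-swim and 0.995, 0.911 and 0.991 in Des+/+ swim, with no overlap. In Des-/- it was 0.604, 0.512 and 0.511 without swimming and 0.604, 0.554 and 0.782 after it. The log2 ratio was higher after swimming by 0.46 on average (exact permutation p = 0.01, adjusted over 8 ratio tests 0.04), by 0.67 in Des+/+ and 0.24 in Des-/-. In Des-/- swim, replicates 1 and 2 lay within or at the edge of the non-swim range, and only replicate 3, at 0.782, lay clearly above it. Without that library the average swimming difference was 0.39 (exact permutation adjusted p = 0.0667). The log2 ratio was lower in Des-/- with a difference of -0.38 (exact permutation p = 0.015, adjusted 0.04), with values of -0.16 without and -0.59 after swimming. The permutations were two-sided and allowed 400 arrangements, so that 0.005 was the smallest possible p. With libraries left out in turn, the genotype difference lay between -0.45 and -0.33 and the swimming difference between 0.39 and 0.51, and they passed the adjusted threshold in 3 and 5 of the 12 sets. Permuted within same-numbered pairs, as a replicate block, neither passed (adjusted p = 0.125 for each, with 64 arrangements). The permutation p was 0.0625 by genotype and 0.03125, the smallest possible there, by swimming. That smallest p passes after adjustment only if most of the 8 tests reach it, so this form could hardly decide. The share of reads that matched no exon on the counted strand, given above, was also higher in swim than in non-swim libraries of Des+/+. Its part in these ratios was not tested.

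**Figure D3:**
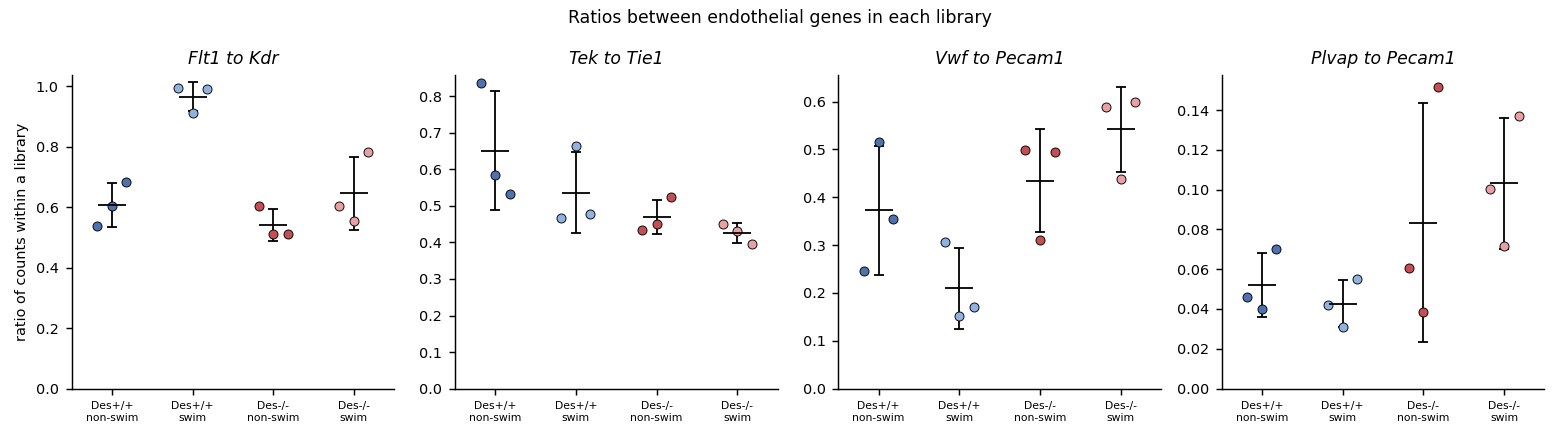
Ratio of the counts of 2 genes within each library (vertical axis, from 0) in the 4 groups; points are libraries, horizontal bars the mean and error bars the SD (n = 3). The 3 Des+/+ swim libraries have Flt1 to Kdr ratios of 0.911 to 0.995, above the highest of the other 9, which is 0.782.

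The angiopoietin receptor Tek (TIE2) and its partner Tie1, an orphan receptor that modulates it, differed by genotype in their ratio, while neither was called. The log2 genotype change of Tek over both conditions was -0.10 (SE 0.15, edgeR adjusted p = 0.615). Tek was at 343 to 438 CPM in Des+/+ non-swim, 308 to 499 in Des+/+ swim, 271 to 422 in Des-/- non-swim and 319 to 394 in Des-/- swim libraries, and every pair of groups overlapped. Tie1 was at 523, 657 and 645 CPM in Des+/+ non-swim and at 972, 790.2 and 519 in Des-/- non-swim, where replicate 3 was lowest. Its log2 genotype change over both conditions was 0.30 (SE 0.15, adjusted p = 0.131), with an adjusted p of 0.0215 without that library. The ratio of Tek to Tie1 counts was 0.838, 0.586 and 0.532 in Des+/+ non-swim and 0.466, 0.664 and 0.477 in Des+/+ swim. It was 0.435, 0.450 and 0.523 in Des-/- non-swim and 0.450, 0.431 and 0.396 in Des-/- swim. The genotypes did not overlap in either condition. The log2 difference was -0.38 (exact permutation p = 0.005, the smallest possible, adjusted 0.04), with -0.45 without and -0.31 after swimming. With libraries left out in turn it lay between -0.45 and -0.28 and passed in 6 of the 12 sets. With the replicate block its permutation p was 0.03125, the smallest possible there, and it did not pass after adjustment (adjusted p = 0.125). For swimming the difference was -0.21 (exact permutation p = 0.15, adjusted 0.2).

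The ratios of Vwf and Plvap to Pecam1 did not pass the adjusted threshold. Pecam1 encodes CD31, an adhesion molecule of endothelial junctions that platelets also carry. The Vwf to Pecam1 ratio averaged 0.372 ± 0.136 (SD, n = 3) in Des+/+ non-swim, 0.209 ± 0.0855 in Des+/+ swim, 0.435 ± 0.107 in Des-/- non-swim and 0.542 ± 0.0894 in Des-/- swim. Its log2 genotype difference was 0.84 (exact permutation p = 0.04, adjusted 0.08), with no overlap after swimming. The Plvap to Pecam1 ratio averaged 0.0519 ± 0.0161 (SD, n = 3), 0.0427 ± 0.0120, 0.0834 ± 0.0600 and 0.103 ± 0.0328 in the same order. Its genotype difference was 0.87 (exact permutation p = 0.055, adjusted 0.088). For swimming, the differences were -0.25 (exact permutation p = 0.465) and 0.11 (exact permutation p = 0.78).

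The remaining junction and surface genes were not called in any comparison. Pecam1 was at 1116, 832 and 890.2 CPM in Des+/+ non-swim, 1139, 1851 and 1231 in Des+/+ swim, 982, 914 and 768 in Des-/- non-swim and 983, 1123 and 921 in Des-/- swim. Cdh5, which encodes VE-cadherin, the adherens junction cadherin of endothelium, was at 1252, 1162 and 1126 CPM in Des+/+ non-swim and at 1346, 1619 and 1615 in Des+/+ swim. It was at 1275, 1330.1 and 931 CPM in Des-/- non-swim and at 1160.3, 1346 and 1370.3 in Des-/- swim. Both were higher in every Des+/+ swim than in every Des+/+ non-swim library, with log2 changes of 0.57 (SE 0.22, adjusted p = 0.180) and 0.37 (SE 0.19, adjusted p = 0.280). Emcn encodes endomucin, a sialomucin of capillary and venous endothelium. It was at 213, 170.0 and 133 CPM in Des-/- non-swim and at 221, 245 and 216 in Des-/- swim, apart but with a log2 change of 0.40 (SE 0.21, adjusted p = 0.353). In Des+/+ it was at 200.2, 125 and 199 CPM without swimming and at 176, 218 and 218 after it, with overlap.

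Over the 12 libraries, the SD of log2 CPM had a median of 0.34 among the 10 genes and 0.39 among all genes tested. It ran from 0.22 for Cdh5 to 0.62 for Plvap. As a description across libraries that share groups and depth, Pearson's r between the genes was above 0 for 35 of 45 pairs, with a median of 0.44 (n = 12). The closest pairs were Pecam1 with Flt1 (0.96) and Kdr with Tek (0.90). Vwf and Plvap stood apart, with r to the mean of the other 9 genes of 0.02 and 0.07, against 0.51 to 0.82 for the other 8. The 8 genes outside the list whose profile was most like the mean of the 10, among 12158 ranked over 12 libraries, were Ddit3 (0.96), Fabp4 (0.94), Arap3 (0.94), Zfp276 (0.93), Entr1 (0.93), Adcy4 (0.92), Ly6c1 (0.92) and Coro2b (0.92). Fabp4, a fatty acid binding protein, and Ly6c1 belong to the list of capillary genes used below.

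Other endothelial genes were read from written lists, first by swimming over both genotypes, where edgeR called 0.828% of all genes. Of 16 further genes of endothelial cells at large, 16 were higher after swimming over both genotypes (median 0.40) and 1 was called, Robo4, a receptor that stabilises vessels, at 0.60 (SE 0.11, edgeR adjusted p = 0.0385). Of 9 capillary genes, 8 were higher (median 0.83) and 2 were called. Gpihbp1, which anchors lipoprotein lipase on capillaries, averaged 228 CPM in Des+/+ non-swim, 526 in Des+/+ swim, 233 in Des-/- non-swim and 579 in Des-/- swim libraries, a log2 change of 1.26 (SE 0.17, adjusted p = 0.0145). Rgcc, a regulator of the cell cycle, averaged 99.2, 319, 82.2 and 259 CPM in the same order, a change of 1.67 (SE 0.28, adjusted p = 0.0269). The call was lost without replicate 3 of Des+/+ swim for Gpihbp1 (adjusted p = 0.0523). It was lost without any Des+/+ non-swim library, replicates 1 or 3 of Des+/+ swim or replicate 2 of Des-/- non-swim for Rgcc (up to 0.0829). For Robo4 it was kept only without replicate 1 of either Des-/- group or replicate 3 of Des-/- swim, and the adjusted p otherwise reached 0.0988. Of 8 arterial genes, 6 were higher (median 0.19), of 7 venous and activation genes 5 (median 0.04), of 3 endocardial genes 3 (median 0.40) and of 6 lymphatic genes tested 2 (median -0.72), and none was called. Of 15 endothelial transcription factors, 12 were higher (median 0.27) and none was called, the smallest p being that of Sox17 with 0.62 (SE 0.15, adjusted p = 0.0678).

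By genotype over both conditions, where 39.9% of all genes were called, the same lists were mixed. None of them had a larger share called than that. Over both conditions, 5 of 16 genes of endothelial cells at large were higher in Des-/- (median -0.05; 1 called, Ecscr, at 0.50), as were 10 of 15 transcription factors (median 0.12; 1 called, Lyl1, at 0.96). Among 9 capillary genes 5 were higher and 2 were called. Fabp5, a fatty acid binding protein, rose by 0.70 on the log2 scale (adjusted p = 0.0123), and the water channel Aqp1 fell by 0.66 on the log2 scale (adjusted p = 0.0327). Of 8 arterial genes 6 were lower, with Sema3g called at -0.55 (adjusted p = 0.0148). Of 7 venous and activation genes 6 were higher (median 0.61), and 2 were called. Selp, which encodes the adhesion receptor P-selectin of activated endothelium and platelets, rose by 1.52 on the log2 scale (adjusted p = 0.0170) and Ackr1, a chemokine receptor of venules, by 1.24 (adjusted p = 0.0413), at group means of no more than 10.9 and 2.15 CPM. Without replicate 3 of both Des-/- groups, the adjusted p was 0.0571 for Selp. That of Ackr1 passed 0.05 without any Des+/+ non-swim library, replicates 1 or 2 of Des+/+ swim, replicates 1 or 3 of Des-/- non-swim or replicate 1 of Des-/- swim (up to 0.117), and that of Aqp1 without replicate 3 of Des+/+ non-swim, replicates 2 or 3 of Des+/+ swim or replicates 2 or 3 of Des-/- swim (up to 0.0794). Of 6 lymphatic genes 4 were higher (median 0.18), and 2 were called in opposite directions. These were the surface glycoprotein gene Pdpn at 1.57 (adjusted p = 0.00491) and the transcription factor gene Prox1 at -1.22 (adjusted p = 0.0169). In the same comparison 9 of 9 fibroblast genes were called higher and 11 of 11 cardiomyocyte genes lower. Their part in these 2 values was not tested. Of 3 endocardial genes 1 was higher (median -0.09), Npr3 being called at -0.63 (adjusted p = 0.0109, or 0.0519 without replicate 3 of both Des-/- groups).

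Of 13 ligands and receptor partners tested, 5 were called by genotype over both conditions, a share near the 39.9% of all genes called there. Vegfa, the main ligand of Kdr, averaged 230.3 CPM in Des+/+ non-swim, 164 in Des+/+ swim, 93.2 in Des-/- non-swim and 116 in Des-/- swim libraries, and fell by 0.91 on the log2 scale over both conditions (SE 0.22, adjusted p = 0.00712). Vegfb, whose product binds Flt1 and not Kdr, averaged 282, 189, 65.5 and 116 CPM in the same order and fell by 1.40 (SE 0.21, adjusted p = 5.67e-04). Vegfd, which binds the lymphatic receptor Flt4, rose by 2.14 (SE 0.44, adjusted p = 0.00320) at group means of 2.80 to 15.5 CPM. For Flt1 and Kdr the genotype changes over both conditions were -0.43 (SE 0.18, adjusted p = 0.0801) and -0.06 (SE 0.22, adjusted p = 0.848), and that of Flt1 had an adjusted p of 0.0396 without replicate 1 of Des-/- non-swim. The third called lower was a receptor, Bmpr2, at -0.39 (adjusted p = 0.0119), and the other called higher was Vegfc at 0.45 (adjusted p = 0.0264), both named after their values were seen. By swimming 0 of the 13 were called, where Pgf, the gene of PlGF, stood at 1.17 (SE 0.33, adjusted p = 0.0971). The cardiomyocyte genes fell in the same comparison (11 of 11 called, median -1.46), and their part in the ligand values was not tested.

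Lists for other cell types were read in the same way for the 2 averaged comparisons, with 39.9% of all genes called by genotype and 0.828% by swimming. By genotype, 9 of 9 fibroblast genes (median 1.00; 9 called), 10 of 10 macrophage genes (1.93; 9 called), 5 of 5 erythroid genes (1.30; 3 called) and 11 of 12 genes of the early response to cell isolation (1.56; 10 called) were higher in Des-/-. The macrophage sums were highest in replicate 3 of both Des-/- groups, as given above, and the macrophage median was not computed without them. Of 8 genes of pericytes and smooth muscle, 3 were higher (median -0.07), with 0 called. By swimming, none of these lists held a called gene, and medians were -0.58 for fibroblast, -0.92 for macrophage, 0.77 for erythroid, -0.18 for isolation, -0.03 for mural, -0.01 for platelet and -0.02 for cardiomyocyte genes. As given above, the erythroid, cardiomyocyte and macrophage medians differed between Des+/+ and Des-/-. Their part in the values of the endothelial genes was not tested.

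**Figure D4:**
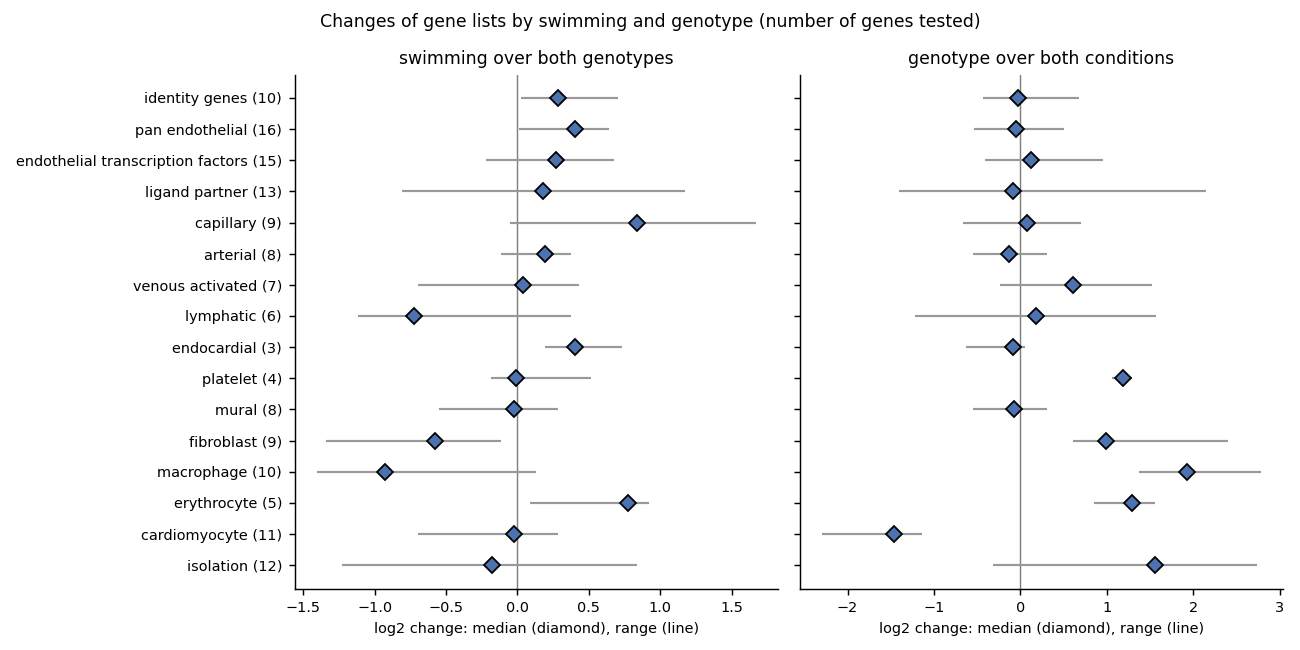
Log2 change (horizontal axis) of each gene list for swimming over both genotypes (left) and for genotype, Des-/- against Des+/+, over both conditions (right); diamonds are list medians, lines run from the lowest to the highest gene, and numbers in brackets count the genes tested. The endothelial identity genes have medians of 0.28 for swimming and -0.03 for genotype, against 0.83 for capillary genes by swimming and 1.93 for macrophage genes by genotype.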

How the data were processed

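Poly-A RNA of ACM was sequenced as 100 bp single-end reads. The deposited files hold raw gene counts, not normalised, made by the authors with HISAT2 2.2.1 and HTSeq-count in reverse-strand mode on build GRCm38. SAMtools 1.13 and DESeq2 1.40.2 are also named in the submitters' processing notes. On strand the sources differ: an unstranded kit stands in the labels, a directional kit in the study's methods. Positions and exon lengths came from GENCODE M21, in which 21488 of 21493 genes matched. Groups came from the sample labels.

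Counts were fitted in edgeR 4.0.16 (R 4.3.3) with TMM scaling, filterByExpr (13158 genes) and 4 group means over 12 libraries, with 8 degrees of freedom left, and 7 contrasts were tested by quasi-likelihood. Benjamini-Hochberg adjustment ran over all genes tested, and calls needed an adjusted p below 0.05. A replicate is a pool of mice, and p-values measure only the spread between such libraries. Ratios were log2 ratios of counts with 0.5 added, tested by exact permutation within the other factor and adjusted over 8 tests. Depths of 4320819 to 12072443 reads put the floor of 3 counts at 0.249 to 0.694 CPM, for counting error only, and 0 of the 10 genes had under 20 counts in any library. The procedure was tested on simulated data. The 10 genes, the lists and the ratios were chosen with earlier results of these data known. Named genes were the 10, up to 3 per list with the smallest p for swimming and for genotype, and the 8 with the closest profile.

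Same-numbered libraries of the 2 Des-/- groups deviated together (correlations of 0.365, 0.316 and 0.602 over genes), which was not so for the other pairs of groups (-0.41 to 0.134). Alternatives were other scalings, filters, DESeq2 1.42.0, a replicate block, fits of the compared libraries alone, the study's own filter, leaving out each library and leaving out replicate 3 of both Des-/- groups. A fit of the 6 Des-/- libraries with the block was chosen after seeing the data.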

Additional observations from a re-analysis of the deposited data

How the results depend on the processing

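Over 68 results, 1339 alternative values were computed, of which 1191 kept their direction and their side of the threshold, and 30 changed sign. The number of the 10 genes called moved as follows, with the number of all genes called in brackets where it was computed. For genotype without swimming it was 0 (4210) in the main fit and 1 (3703) without replicate 3 of both Des-/- groups. For genotype after swimming it was 1 (1392) in the main fit, 2 (1080) with only the libraries compared and 3 by the study's filter. With a library left out it was 0 to 1 (74 to 2142). For swimming it was 1 in Des+/+ and 1 in Des-/- by the study's filter, and 1 (333) in Des-/- by DESeq2. Over both genotypes it was 0 (109) in the main fit, 2 (829) by DESeq2 and 1 (417) without replicate 3 of both Des-/- groups. There it was 0 to 1 (6 to 284) with a library left out. For genotype over both conditions it was 1 (5250) in the main fit, 2 (5510) with upper-quartile scaling, 3 (6011) with total counts and 2 (5047) without a filter. It was 2 (5694) by DESeq2, 2 (4522) without replicate 3 of both Des-/- groups and 0 to 2 (4435 to 5264) with a library left out. Upper-quartile scaling and total counts moved the median change of all genes without swimming from 0.04 to 0.14 and 0.29. For genotype over both conditions, the adjusted p passed 0.05 for Aqp1 with upper-quartile scaling (0.0654), total counts (0.137) and no filter (0.0519), and with total counts for Npr3 (0.065) and Sema3g (0.111); by swimming it did for Robo4 with total counts (0.0585). The causes of the other moves were not tested.

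Some changes turned sign. For genotype over both conditions, total counts gave 0.082 for Cdh5, 0.14 for Kdr and 0.10 for Tek, upper-quartile scaling 0.043 for Kdr, and leaving out replicate 3 of both Des-/- groups 0.15 for Kdr and 0.054 for Tek. Flt1 without swimming was at 4.0e-05 with total counts. With a library left out, the genotype change over both conditions ran from -0.17 to 0.11 for Kdr, -0.19 to 0.012 for Tek, -0.032 to 0.14 for Emcn and -0.097 to 0.14 for Eng. The swimming change over both genotypes ran from -0.040 to 0.24 for Kdr and -0.091 to 0.11 for Tek, that of Tek in Des-/- from -0.072 to 0.23, and the genotype change of Plvap without swimming from -0.045 to 0.84.

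With the replicate block, 2 of the 10 genes (Vwf and Plvap) were called for genotype over both conditions, and Eng there was at -0.023. Permuted within same-numbered pairs, the ratios gave an adjusted p of 0.125 for Flt1 to Kdr by genotype (-0.38) and by swimming (0.46) and for Tek to Tie1 by genotype (-0.38), with 64 arrangements. The block changed no other call of the 10 genes; Robo4 by swimming then had an adjusted p of 0.0628. A same-numbered Des-/- fit of 6 libraries, chosen after seeing the data, gave 0.80 for Eng by swimming (adjusted p = 0.137). With a library left out, the ratio differences ran from -0.45 to -0.33 and 0.39 to 0.51 (Flt1 to Kdr, genotype and swimming), -0.45 to -0.28 (Tek to Tie1, genotype), 0.71 to 1.00 (Vwf to Pecam1, genotype), 0.60 to 1.09 (Plvap to Pecam1, genotype) and -0.11 to 0.38 (Plvap to Pecam1, swimming). In these sets Vwf to Pecam1 passed the threshold in 2 of 12 and Plvap to Pecam1 in 1 of 12 by genotype. The 10 genes had 283 counts or more in each library.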
